A study of Arabidopsis thaliana with 20 samples.

Results

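The comparison described here is between leaves of Arabidopsis thaliana Col-0, the common laboratory wild type, at 8 h of high light and the same line at 0 h. It rests on 4 of the 20 libraries of the study, chosen by their labels, 2 for each hour. Plants of both groups were 4 weeks old and had grown in short days of 10 h light and 14 h darkness. Leaves of the 0 h group had received 2 h of normal light (100 µmol photons m-2 s-1), and those of the 8 h group the same 2 h followed by 8 h at 500 µmol photons m-2 s-1. Poly-A RNA of whole leaves was sequenced, and levels are given as FPKM, fragments per kilobase of gene scaled to the size of the library. The other 16 libraries are Col-0 at 4, 16 and 30 h and the mutant line ilp1-1 at all 5 hours. Their values are given below only where named, but all 20 libraries set which genes were tested and the spread used. Leaves of 4 and 16 h had received 2 h of normal light and then 4 and 16 h of high light. Those of 16 h were taken 18 h after the lights went on, when the short day would have been dark. Plants of the 30 h harvest had been returned to normal light for the last 6 h, after 24 h of high light.

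Plants keep time with a clock of transcription factors that repress or activate one another in turn: CCA1 and LHY peak in the morning, the PRR proteins follow through the day, and TOC1 and the evening complex of ELF3, ELF4 and LUX take over towards night. Much of photosynthesis, starch turnover and growth is timed by this clock. Strong light acts on many of the same processes: leaves are known to lower their light-harvesting antenna, to make flavonoids and anthocyanins that screen the cells, and to store and use more starch.

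The 0 h leaves were taken 2 h after the lights went on and the 8 h leaves 10 h after, the hour at which the short day would have ended. No libraries kept in normal light to that hour were analysed here, so light and time of day cannot be told apart in any result below. Whether the 2 libraries of an hour come from separate plants or from pools is not in the labels. An SE or p-value here covers only how much replicate libraries differ, which may be technical. That spread is shared over all 20 libraries, those of ilp1-1 included. Reads recovered from the deposited values numbered 18.4 and 16.2 M in the libraries of 0 h, against 14.8 and 14.4 M in those of 8 h. Replicates correlated across genes with a Pearson r of 0.988 at 0 h and 0.990 at 8 h. Leaf markers were abundant in all 4 libraries (RBCS1A, a Rubisco small subunit, at 19707 to 20502 FPKM). Of the 4 seed markers, CRC, SESA3 and OLEO1 were listed at 0 in each. CRA1 was at 0.108 FPKM in 0 h replicate 2 and at 0 in the other libraries.

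Transcripts of 9666 of 19311 genes tested differed between 8 h and 0 h, 4812 higher and 4854 lower, at a Benjamini-Hochberg adjusted p under 0.05 in limma. Background shares for reading the counts below are therefore 50.1% of genes in either direction, 24.9% higher and 25.1% lower. Changes of at least 2-fold on the log2(FPKM + 1) scale were fewer, 1445 genes higher (7.48%) and 1628 lower (8.43%), and 175 genes changed by at least 8-fold (76 higher and 99 lower). In 75.7% of all genes tested the 2 libraries of one hour lay above both of the other, so a lack of overlap alone says little here. The median over all genes was -0.03. Fitted on the 4 libraries alone, 9087 genes passed. All differences below are in log2(FPKM + 1), 8 h minus 0 h, ± SE from the fit, and understate the change of genes at low levels.

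**Figure D1:**
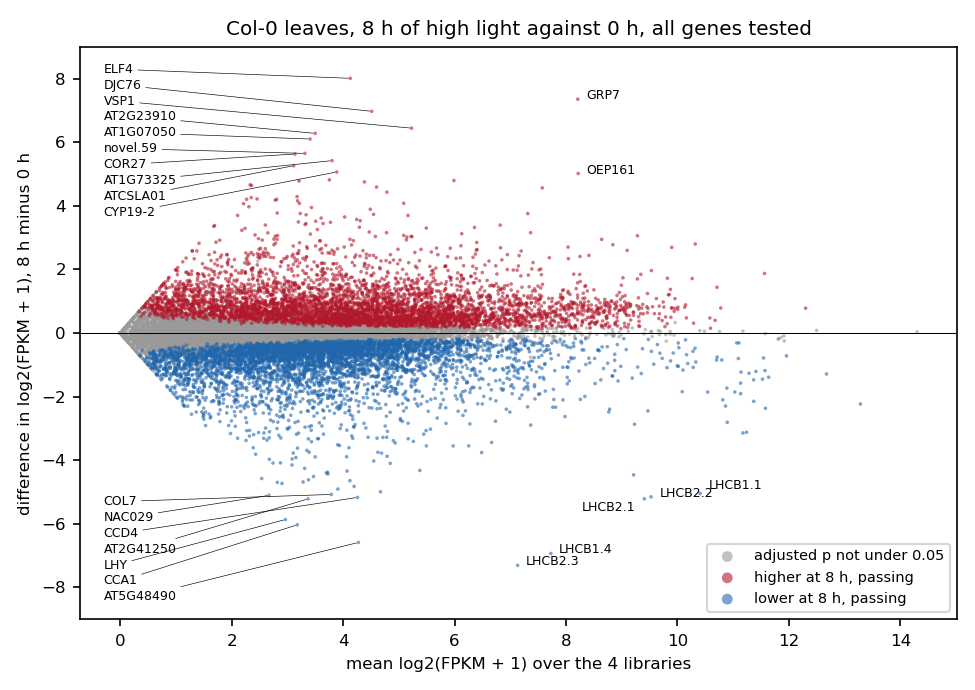
Difference in log2(FPKM + 1) between 8 h and 0 h against the mean log2(FPKM + 1) over the 4 Col-0 libraries, 1 point for each of 19311 genes tested, red where higher and blue where lower at an adjusted p under 0.05. The 12 highest and 12 lowest leaders are named, from ELF4 at 8.01 to LHCB2.3 at -7.31.

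Evening genes of the clock were the group that stood highest. Of 16 tested, 14 were higher at 8 h and 2 lower, with a median of 3.39. ELF4, a subunit of the evening complex, led all genes. It was listed at 0.18 and 0 FPKM at 0 h and at 279.6 and 280.4 FPKM at 8 h. That is 2 reads against 5235 over each pair of libraries, a ratio of 2937 with a 95% counting interval from 813 to 24258 (8.01 ± 0.17, adjusted p = 1.65e-14). Counting intervals cover only the counting error of reads pooled over each pair of libraries. They leave out how much replicate libraries differ, and reads were counted without molecular identifiers. At 0 h ELF4 ranked 21260th among the genes by level and at 8 h 457th.

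GRP7, an RNA-binding protein that is itself driven by the clock, rose to the 7th rank of all genes from the 4580th. GRP7 libraries held 20.8 and 23.596 FPKM at 0 h and 3888 and 3703 FPKM at 8 h (7.36 ± 0.09, adjusted p = 3.75e-17). Its relative GRP8 was already well expressed at 0 h (98.6 and 105.3 FPKM) and reached 697.9 and 642.7 FPKM (2.70 ± 0.09). COR27 and COR28, repressors of clock genes first found as cold-regulated, were nearly silent in the early sample. COR27 went from 0.168 and 0.330 to 63.8 and 58.0 FPKM (5.63 ± 0.25, adjusted p = 4.3e-11), and COR28 from 0.104 and 0.157 to 17.7 and 18.3 FPKM (4.07 ± 0.18).

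The partners of ELF4 in the evening complex rose less steeply. ELF3 had 1.2965 and 0.925 FPKM at 0 h and 17.7 FPKM in both 8 h libraries (3.15 ± 0.15), and LUX, the DNA-binding subunit, 3.03 and 3.11 against 24.7 and 24.8 FPKM (2.66 ± 0.12). BOA, a close relative of LUX, stayed at low levels, 0.114 and 0.0732 FPKM at 0 h and 1.23 and 1.88 FPKM at 8 h (1.21 ± 0.19). TOC1, a repressor of CCA1 and LHY, stood at 3.004 and 3.17 FPKM and then at 45.4 and 44.0 FPKM (3.48 ± 0.13, adjusted p = 4.1e-12). In none of these genes did the libraries of the 2 hours come near each other.

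FKF1, a blue-light receptor that marks its targets for degradation, had no read in either 0 h library and 1495 reads over the 8 h libraries, at least 559-fold higher against a floor of 3 reads over the group. PRR3, which protects TOC1 from degradation, had 2 reads over the 0 h libraries and 1954 over the 8 h libraries, a ratio of 1096 (95% counting interval 303 to 9058). GI, a partner of FKF1, held 3.33 and 2.64 FPKM at 0 h and 25.0 and 25.1 FPKM at 8 h (2.71 ± 0.17). JMJD5, a histone demethylase with a part in the clock, moved from 1.37 and 1.71 to 71.2 and 70.1 FPKM (4.82 ± 0.14), and PRR5, a repressor of the morning genes, from 0.496 and 0.518 to 13.5 and 14.0 FPKM (3.29 ± 0.14). The members that went down were CHE, a regulator of CCA1 (57.2 and 55.6 against 21.1 and 26.8 FPKM, -1.21 ± 0.10), and ZTL, a relative of FKF1 whose transcript is known to cycle little (-0.43 ± 0.09).

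Morning genes showed the opposite picture, with 13 of 14 lower, 1 higher and a median of -3.23. CCA1 fell from 73.5 and 70.9 FPKM to 0.103 and 0.130 FPKM (-6.03 ± 0.17, adjusted p = 2.57e-13). LHY, its close relative, fell from 57.6 and 59.6 FPKM to 0.0411 and 0 FPKM (-5.87 ± 0.14), which is 6364 reads against 2 and a ratio of 2836 (95% counting interval 785 to 23422). The morning pair was thus among the more abundant transcripts at 0 h (ranks 1428 and 1787) and at the edge of detection at 8 h.

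LNK proteins are co-activators that work with RVE8 to switch on evening genes, and they fell with it. LNK2 had 146.6 and 138.8 FPKM at 0 h and 3.51 FPKM in both libraries at 8 h (-4.99 ± 0.08), LNK3 -4.82 ± 0.11, LNK4 -4.34 ± 0.08 and LNK1 -1.98 ± 0.11. RVE8 itself went from 28.4 and 30.1 to 0.689 and 0.877 FPKM (-4.08 ± 0.12), while its relatives RVE4 (-1.72 ± 0.10) and RVE6 (-0.56 ± 0.15) had smaller changes, and RVE6 did not pass without 8 h replicate 2 (-0.41). PRR9 fell from 22.2 and 26.7 to 0.952 and 0.331 FPKM (-3.97 ± 0.17), and PRR7, which peaks after PRR9, only from 25.7 and 30.95 to 20.8 and 20.3 FPKM (-0.44 ± 0.13, adjusted p = 0.011), a call lost without 0 h replicate 2 (-0.31) or 8 h replicate 2 (-0.42).

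The morning list's exception was RVE2, a MYB factor of the CCA1 family, at 1.76 and 4.16 FPKM at 0 h and 39.2 and 41.2 FPKM at 8 h (3.45 ± 0.22, adjusted p = 2.44e-09). Its relative RVE1, known to promote auxin synthesis, went the other way, from 3.83 and 6.67 to 0.0348 and 0.141 FPKM (-2.49 ± 0.22). Of the photoperiod genes, the CDF repressors of flowering that are known to be made in the morning were lower: CDF1 at -2.45 ± 0.19, CDF3 at -1.799 ± 0.14 and CDF2 at -1.76 ± 0.19, 3 of 4 tested. FT, the mobile flowering signal, was listed at 0 in all 4 libraries.

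**Figure D2:**
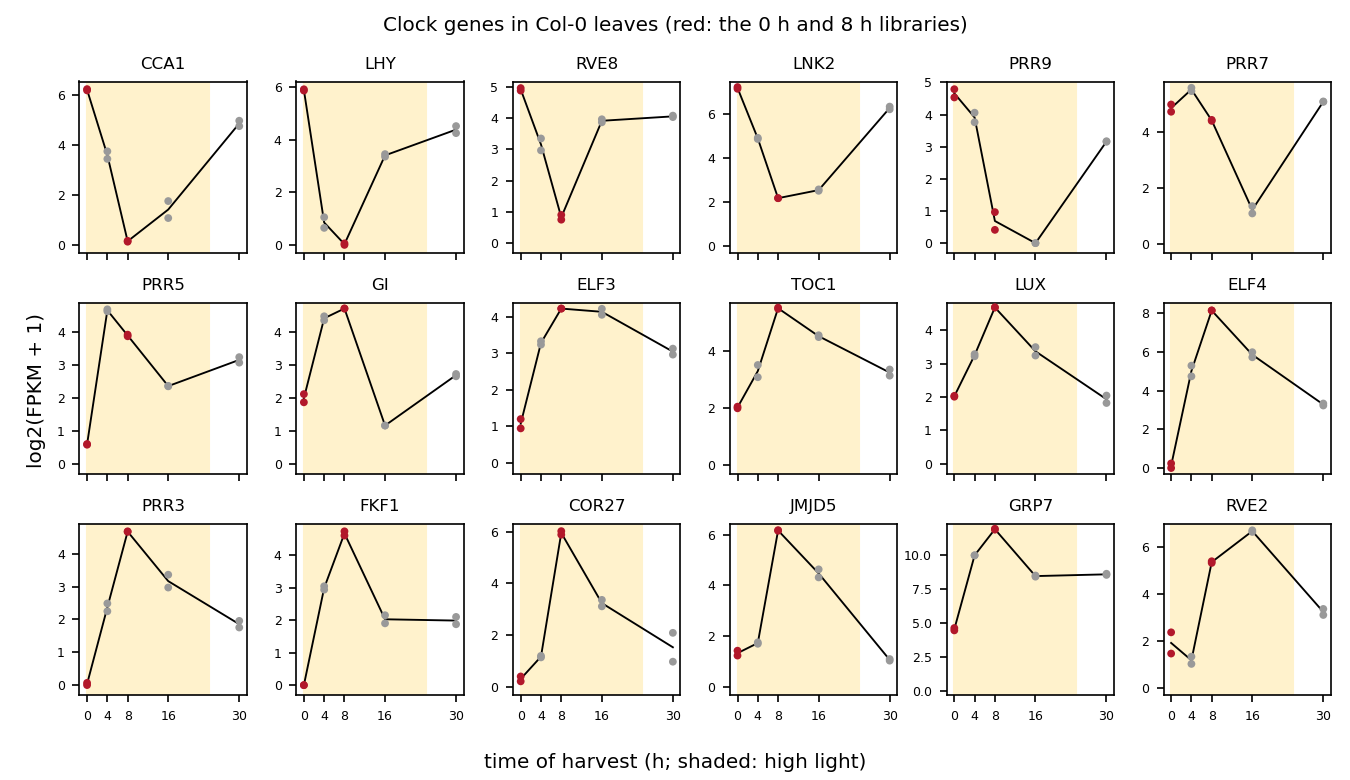
Level of 18 clock genes as log2(FPKM + 1), on a scale of its own in each panel, against the hour of harvest in Col-0, with 1 point for each library, red for 0 h and 8 h, and a line through the means. CCA1, LHY and RVE8 were lowest at 8 h, while ELF4, GRP7, COR27 and JMJD5 were highest there, and RVE2 was higher still at 16 h. Shading marks high light.

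Promoters of 5 clock genes are shown because they carry the letters that clock proteins are known to read. They are the 200 bases before the annotated gene start, 5′ to 3′ on the gene's strand, from the RefSeq copy of the TAIR10 genome, and were picked after the values were seen. Capitals mark the evening element (AAAATATCT or its reverse complement AGATATTTT), known as a binding site of CCA1, LHY and the RVE factors, and the G-box (CACGTG), which bHLH and bZIP factors read. The evening element begins 76, 55 and 31 bases before the start of GRP7, 151 before TOC1 and 53 before LUX. The G-box begins 193 bases before LUX, 193 before CCA1 and 80 before LHY.
GRP7 (chr2:9266558-9266757, minus strand): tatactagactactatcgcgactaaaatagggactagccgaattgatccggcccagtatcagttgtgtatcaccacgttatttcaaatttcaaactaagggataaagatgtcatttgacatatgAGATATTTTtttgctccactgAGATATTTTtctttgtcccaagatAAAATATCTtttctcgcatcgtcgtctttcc
TOC1 (chr5:24674763-24674962, plus strand): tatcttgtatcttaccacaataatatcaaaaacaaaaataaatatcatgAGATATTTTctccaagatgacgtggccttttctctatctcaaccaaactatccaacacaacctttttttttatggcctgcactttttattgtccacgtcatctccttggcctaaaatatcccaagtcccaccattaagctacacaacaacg
LUX (chr3:17182842-17183041, plus strand): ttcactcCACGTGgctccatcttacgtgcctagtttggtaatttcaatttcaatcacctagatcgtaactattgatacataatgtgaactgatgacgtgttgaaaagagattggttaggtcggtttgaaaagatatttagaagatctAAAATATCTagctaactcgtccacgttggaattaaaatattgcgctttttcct
CCA1 (chr2:19245391-19245590, plus strand): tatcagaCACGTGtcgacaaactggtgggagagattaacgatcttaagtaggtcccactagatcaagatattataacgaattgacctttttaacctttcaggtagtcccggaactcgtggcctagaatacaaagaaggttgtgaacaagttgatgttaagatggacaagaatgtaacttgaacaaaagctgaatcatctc
LHY (chr1:37872-38071, minus strand): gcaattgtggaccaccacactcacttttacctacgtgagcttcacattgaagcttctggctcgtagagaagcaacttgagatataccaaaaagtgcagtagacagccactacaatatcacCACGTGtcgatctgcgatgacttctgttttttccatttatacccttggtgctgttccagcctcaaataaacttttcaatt

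Both strands of the 300 bases before 19171 of the genes tested were searched for the same letters. The evening element was found in 554 of them (2.89%), among them 4.79% of the genes that passed as higher at 8 h, 2.09% of those lower and 2.34% of those that did not pass. Its share was 7.32% in genes at least 2-fold higher and 19.7% (15 of 76) in genes at least 8-fold higher, against 2.52% and 3.03% in the matching classes of lower genes. Of the evening clock list 8 of 16 promoters held it and of the morning list 1 of 14. These counts overlap: GRP7, COR27, TOC1 and PRR5 are in the evening list and also among the 15 genes at least 8-fold higher. Values of GRP7, whose window holds it 3 times, are given above, and the steepest gene, ELF4, has neither motif in its window.

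The G-box was in 7.94% of all promoters, in 16 of 76 at least 8-fold higher and in 16 of 99 at least 8-fold lower. It was present in 7 of 14 morning clock promoters, in 7 of 20 of starch breakdown and in 5 of 20 of the antenna. The related CCA1-binding site (AAAAATCT) was in 7.88% of all promoters, 8.34% of those higher and 7.95% of those lower. The evening element and the CCA1-binding site differ at the fifth letter, so the same start cannot match both on one strand, and the G-box reads the same on both strands. A match describes letters only and is not a measured binding site.

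Antenna proteins bind the chlorophyll that collects light: LHCB proteins around photosystem II and LHCA proteins around photosystem I. Their transcripts took 11.1 and 10.98% of all reads in the 0 h libraries and 1.96% in both 8 h libraries. Of 20 antenna genes tested 18 were lower, 2 higher and the median was -2.33. In bulk leaf RNA, fewer cells of a type and less RNA per cell cannot be told apart, here and in all results.

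LHCB1 and LHCB2 make up the major trimers and are the antenna proteins that move between the photosystems, and their genes are near-identical copies, so the division of reads among them is uncertain. LHCB2.3 fell the most, from 1769 and 1762 FPKM to 9.74 and 10.55 FPKM (-7.31 ± 0.12, adjusted p = 7.84e-16), and went from the 46th to the 7998th rank. LHCB1.4 fell from 2427 and 2270 to 21.6 and 15.2 FPKM (-6.94 ± 0.21), LHCB2.1 from 4179 and 4088 to 111.9 and 108.8 FPKM (-5.21 ± 0.10) and LHCB2.2 from 4470 and 4331 to 120.5 and 125.0 FPKM (-5.15 ± 0.12). LHCB1.1 went from 7703 and 7940 FPKM, the 4th rank, to 236.3 and 234.2 FPKM, the 539th (-5.05 ± 0.06, adjusted p = 6.76e-18). One copy, LHCB1.3, kept a high level in both groups, 21684 and 21567 FPKM at 0 h and 4636 and 4572 FPKM at 8 h (-2.23 ± 0.05). LHCB1.5 was listed at 0 in all 4 libraries.

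Among the monomeric antenna proteins that link the trimers to the core, the 3 isoforms of LHCB4 parted. LHCB4.2 fell from 2840 and 2732 to 125.3 and 125.5 FPKM (-4.46 ± 0.09) and LHCB4.1 from 3933 and 3804 to 1612 and 1607 FPKM (-1.26 ± 0.05). LHCB4.3, an isoform known to accumulate in strong light, rose from 76.3 and 78.3 to 276.2 and 266.3 FPKM (1.798 ± 0.07, adjusted p = 1.83e-11). The rare LHCB7 was also higher (0.24 ± 0.09, adjusted p = 0.039), a call lost without any 1 of the 4 libraries, without the intensity trend and with limma-voom, which leaves 1 higher member. At photosystem I, LHCA4 fell by 3.12 on the log2 scale and LHCA1 to LHCA3 by 2.15, 1.86 and 1.73, while the minor LHCA5 and LHCA6 fell by 0.40 each.

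**Figure D3:**
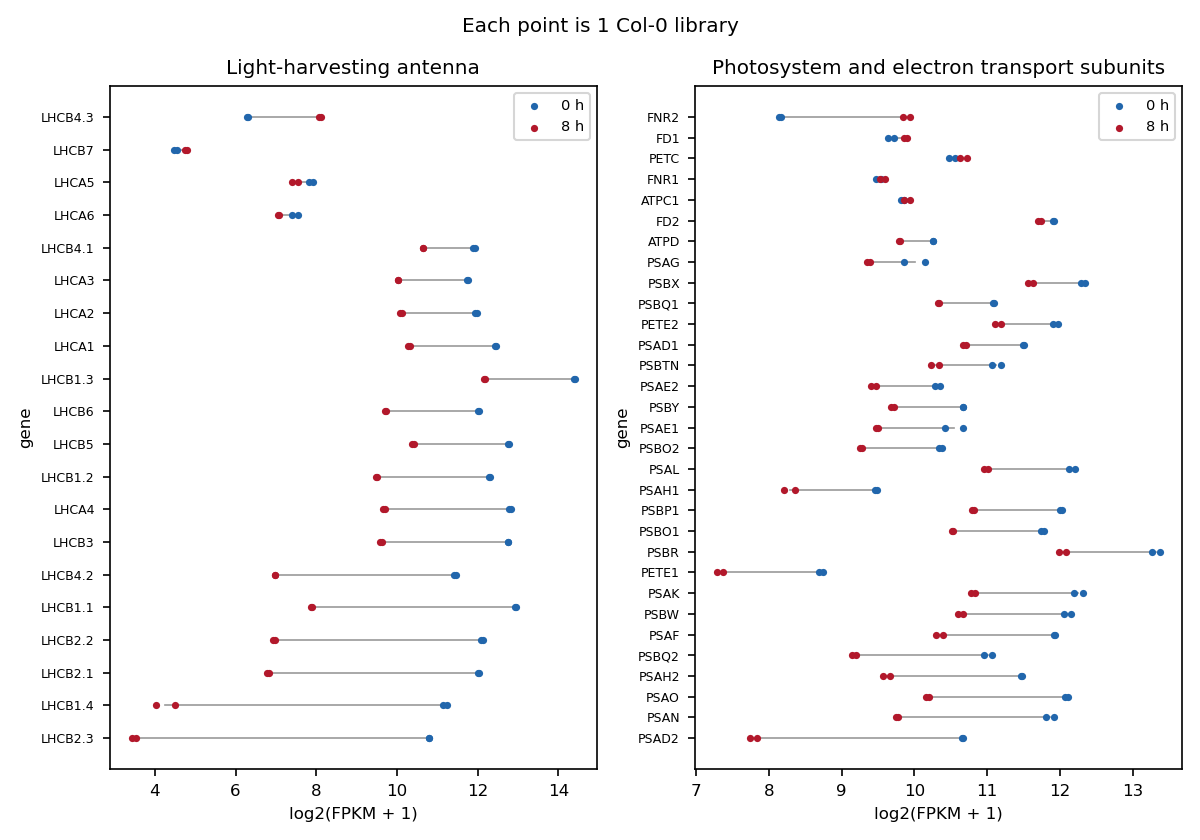
Level as log2(FPKM + 1) of the 20 antenna genes tested (left) and of the 31 nuclear photosystem and electron transport genes (right) in each of the 4 Col-0 libraries, blue for 0 h and red for 8 h, joined at the means. All but LHCB4.3 and LHCB7 of the antenna lay lower at 8 h, and on the right FNR2 alone lay more than 2-fold higher.

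Nuclear genes for the photosystem cores and electron carriers fell too, but by less: 26 of 31 were lower and 3 higher, with a median of -1.05. The higher members numbered 1 without 0 h replicate 2 or without the intensity trend, and 5 when libraries were scaled to total reads. They took 7.90 and 7.66% of the reads at 0 h and 4.17 and 4.12% at 8 h. PSAD2, a docking subunit for ferredoxin on photosystem I, went from 1631 and 1615 to 213.8 and 228.6 FPKM (-2.87 ± 0.08), whereas its twin PSAD1 was at 2867 and 2901 and then at 1677 and 1631 FPKM (-0.80 ± 0.05). PSAN (-2.10 ± 0.07), PSAO (-1.91 ± 0.07) and PSAH2 (-1.86 ± 0.05) of photosystem I and PSBQ2 (-1.84 ± 0.07) of the oxygen-evolving complex followed. FNR2, a reductase that makes NADPH, rose from 280.6 and 286.9 to 980.6 and 918.3 FPKM (1.74 ± 0.06, adjusted p = 9.63e-13), while FNR1 did not pass (710.5 and 743.2 against 773.1 and 735.9 FPKM).

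Chlorophyll synthesis split by enzyme. Of 22 genes 12 were lower and 7 higher, with a median of -0.30. CAO, which makes chlorophyll b and so feeds the antenna, fell from 217.4 and 211.3 to 17.65 and 17.07 FPKM (-3.55 ± 0.07, adjusted p = 9.17e-15). HEMA1, the entry enzyme of the pathway, fell from 442.8 and 455.4 to 61.7 and 57.3 FPKM (-2.90 ± 0.07), and CRD1 (-2.45 ± 0.06) and CHLH of magnesium chelatase (-2.09 ± 0.07) fell with it. PORB, a light-dependent reductase, rose from 118.6 and 127.6 to 255.2 and 251.5 FPKM (1.04 ± 0.09), whereas PORA was near 0 at 8 h (220 reads against 2). GLK1 and GLK2, activators of antenna and chlorophyll genes, were lower as well, GLK2 at 127.2 and 131.0 against 13.8 and 15.2 FPKM (-3.07 ± 0.13) and GLK1 at -1.41 ± 0.09.

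Photoprotection did not move as one. Of 27 genes 14 were lower and 7 higher (median -0.30), and the count higher is near the 24.9% share of all genes. It was 10 when libraries were scaled to total reads, and smaller without 0 h replicate 1 or 8 h replicate 1. LCNP, a lipocalin that protects the antenna by slow energy quenching, rose from 19.9 and 22.4 to 120.6 and 121.6 FPKM (2.46 ± 0.09), and ELIP1, a chlorophyll-binding protein of light stress, from 47.1 and 40.6 to 325.8 and 251.7 FPKM (2.68 ± 0.13). ELIP2 fell (14.6 and 17.0 against 5.18 and 3.75 FPKM, -1.63 ± 0.21). In the xanthophyll cycle VDE, which makes the quenching pigment zeaxanthin, was higher (14.7 and 16.3 against 35.4 and 33.0 FPKM, 1.095 ± 0.10) and ZEP, which removes it, was lower (173.3 and 173.4 against 30.8 and 25.4 FPKM, -2.59 ± 0.10). BCH2, a carotene hydroxylase, fell by 3.52 on the log2 scale and SIG5, a plastid sigma factor, by 2.82, while PSBS, the sensor of energy quenching, rose by 0.40 ± 0.07.

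Calvin-Benson cycle genes were higher in 11 of 22 and lower in 6, with a median of 0.11. The small subunit RBCS1A did not pass (19707 and 20249 against 20424 and 20502 FPKM), but its sister RBCS1B rose from 993.6 and 1038 to 2681 and 2844 FPKM (1.44 ± 0.09). RCA, the activase of Rubisco, fell from 5017 and 5303 to 1926 and 2011 FPKM (-1.39 ± 0.07), and GAPA2 by 1.08. Photorespiration had 3 of 13 higher and 5 lower (median -0.05), with GGT1, a glutamate:glyoxylate aminotransferase, at -1.27 ± 0.04 and GDCH of glycine decarboxylase at 1.08 ± 0.07.

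Antioxidant enzymes were more often higher, 14 of 21 against 5 lower (median 0.51). The catalase CAT2 was the clear exception, from 630.0 and 625.0 FPKM to 99.2 and 102.3 FPKM (-2.63 ± 0.07, adjusted p = 2.48e-13), with VTC2 of vitamin C synthesis (-1.99 ± 0.09) and GPX1 (-1.69 ± 0.08) beside it. The plastid superoxide dismutases FSD2 and FSD3 rose by 2.06 ± 0.14 and 1.53 ± 0.08 on the log2 scale, and DHAR1, which recycles vitamin C, from 368.7 and 379.0 to 1583 and 1352 FPKM (1.97 ± 0.13).

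Starch is built by day and degraded at night in leaves. Genes of its breakdown took 0.0951 and 0.101% of the reads at 0 h and 0.529 and 0.517% at 8 h, and 17 of 20 were higher with a median of 2.02. GWD1 and PWD, the dikinases that phosphorylate starch and open it to attack, rose from 13.4 and 13.2 to 145.6 and 135.3 FPKM (3.30 ± 0.09) and from 5.30 and 5.04 to 63.3 and 59.0 FPKM (3.33 ± 0.10). ISA3, a debranching enzyme, rose most, from 3.05 and 5.02 to 119.4 and 116.8 FPKM (4.59 ± 0.14, adjusted p = 4.25e-13). BAM3, the main plastid beta-amylase, went from 120.2 and 112.5 to 599.9 and 585.6 FPKM (2.34 ± 0.06), while BAM1 (-1.82 ± 0.14) and BAM9 (-2.999 ± 0.15) fell.

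Starch synthesis was higher in 10 of 16 genes and lower in 3, with a median of 0.77. The branching enzyme SBE2.1 rose from 11.6 and 9.89 to 101.4 and 93.6 FPKM (3.07 ± 0.09), PGM by 1.97 ± 0.08 and APS1, the small subunit of ADP-glucose pyrophosphorylase, by 1.32 ± 0.07. GBSS1, the granule-bound synthase that makes amylose, fell from 128.1 and 129.1 to 27.2 and 21.8 FPKM (-2.35 ± 0.10).

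Sugar synthesis and transport had 5 of 20 genes higher and 9 lower (median -0.02), but 5 lower without 8 h replicate 1 and 6 without 0 h replicate 2. SWEET12, a sucrose exporter, rose from 1.72 and 1.74 to 28.7 and 30.9 FPKM (3.49 ± 0.17), GPT2, a glucose-phosphate carrier known to answer to sugar and light, from 4.13 and 6.64 to 52.4 and 42.9 FPKM (2.95 ± 0.20) and CFBP of sucrose synthesis by 1.19 ± 0.07. TPT, which exports triose phosphate from the chloroplast, fell by 1.35 ± 0.06. Markers of carbon starvation were lower in 9 of 16 and higher in 2 (median -1.05), or higher in 1 without 0 h replicate 1. SEN1 had 148 reads at 0 h and 1 at 8 h, and TPS8 fell by 3.31 ± 0.18. BT2, a BTB scaffold protein on the same list, rose from 0.249 and 0.433 to 6.64 and 6.95 FPKM (2.54 ± 0.19).

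Enzymes of flavonoid and anthocyanin synthesis were higher in 19 of 20 genes and lower in none, with a median of 1.99. They took 0.151 and 0.1603% of the reads at 0 h and 0.572 and 0.586% at 8 h. TT4, the chalcone synthase that opens the pathway, went from 331.9 and 351.1 to 1253 and 1208 FPKM (1.85 ± 0.10). TT7, a flavonoid hydroxylase, rose from 4.25 and 5.44 to 80.95 and 90.3 FPKM (3.89 ± 0.24), UF3GT by 3.18 ± 0.20, LDOX by 2.85 ± 0.19 and DFR by 2.63 ± 0.20. PAL1, which feeds all phenylpropanoids, rose by 1.45 ± 0.10. F3H did not pass and was listed at 0 in 3 of the 4 libraries.

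Regulators of the pathway were higher in 8 of 10 and lower in 1 (median 1.90). MYB111, a MYB factor for flavonols, rose from 1.46 and 1.64 to 35.9 and 31.3 FPKM (3.76 ± 0.16), and PAP1, the MYB factor for anthocyanins, from 22.5 and 23.641 to 166.7 and 138.6 FPKM (2.67 ± 0.18). TT8, their bHLH partner, rose by 2.19 ± 0.16. MYBL2, a repressor of anthocyanin synthesis, fell from 48.8 and 50.8 to 10.2 and 10.7 FPKM (-2.15 ± 0.15). HY5, a bZIP factor of light signalling known to activate flavonoid genes, was at 8.89 and 10.9 FPKM at 0 h and 25.2 and 25.5 FPKM at 8 h (1.28 ± 0.11).

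**Figure D4:**
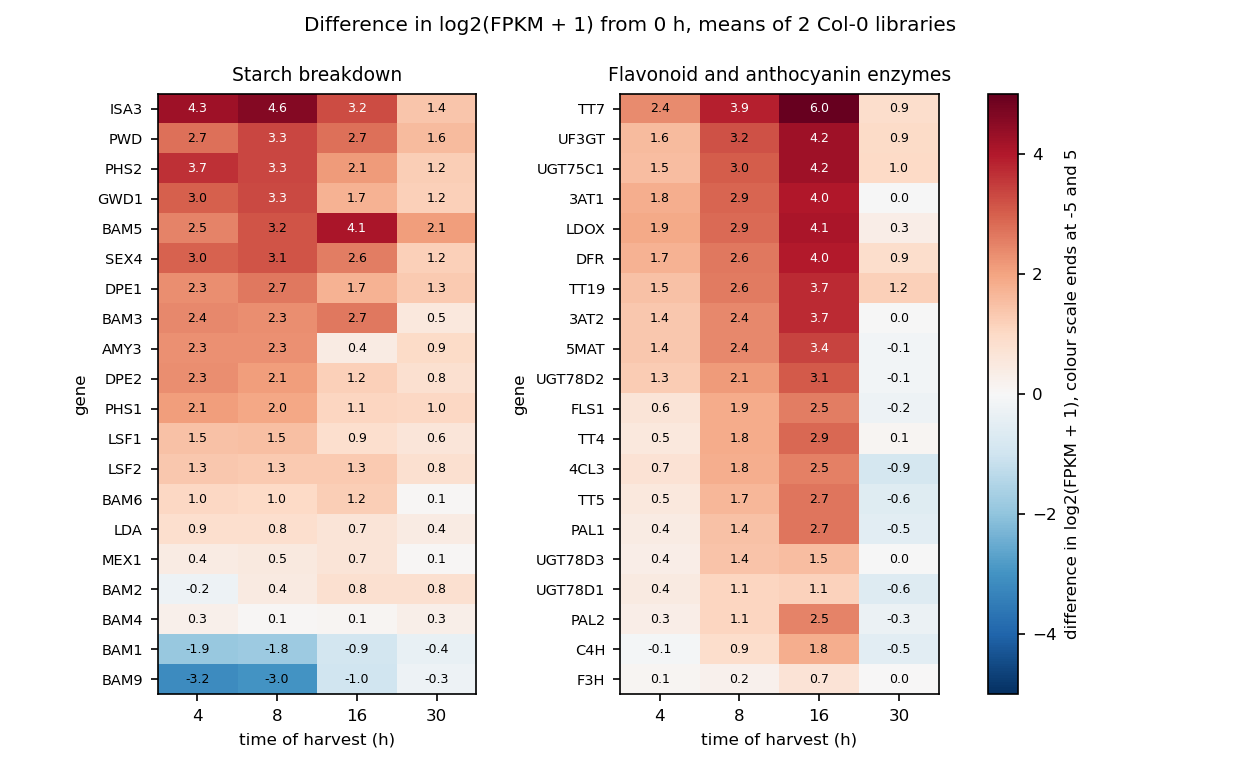
Mean difference in log2(FPKM + 1) from 0 h of 20 starch breakdown genes (left) and 20 flavonoid and anthocyanin enzymes (right) at 4, 8, 16 and 30 h in Col-0, 2 libraries an hour, all against the same 0 h libraries. TT7 stood 2.4, 3.9, 6.0 and 0.9 above 0 h at the 4 hours, whereas AMY3 stood 2.3, 2.3, 0.4 and 0.9 above it.

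Other light signalling genes were mostly lower, 14 of 24 against 4 higher (median -0.39), among them BBX25 (97.4 and 93.9 against 8.09 and 8.39 FPKM, -3.39 ± 0.08) and the blue-light receptor CRY1 (-1.70 ± 0.10). Genes of shade and growth were lower in 17 of 20 and higher in 2 (median -1.496). PIF4 and PIF5, bHLH factors that promote elongation, fell from 57.1 and 56.4 to 10.0 and 10.4 FPKM (-2.37 ± 0.16) and from 80.9 and 83.0 to 13.1 and 10.7 FPKM (-2.69 ± 0.11). The expansin EXPA8, which loosens cell walls, fell from 34.4 and 40.8 to 0.530 and 0.375 FPKM (-4.73 ± 0.24), while EXPA10 rose by 1.74 ± 0.17. Cuticular wax genes were lower in 8 of 8 tested (median -1.26), with KCS1 at -1.91 ± 0.20 and CER1 at -1.84 ± 0.15. Epidermal markers were lower beside them in 3 of 4, their summed level at 200 and 215 FPKM at 0 h and 102 and 111 FPKM at 8 h with none at 0, 1 other member passed as higher under 5 alternatives, and their part in the wax result was not tested.

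Jasmonate genes were higher in 14 of 26 and lower in none (median 0.69). Without the filter 11 were higher, and 1 was lower with limma-voom or fewer libraries in the fit. VSP1 and VSP2, storage proteins that respond to jasmonate, rose from 2.35 and 3.80 to 406.3 and 299.6 FPKM (6.45 ± 0.37, adjusted p = 9.21e-10) and from 8.35 and 14.5 to 377.9 and 295.0 FPKM (4.80 ± 0.38). In the synthesis of the hormone AOC2 rose by 3.16 ± 0.11, LOX2 by 2.41 ± 0.14 and OPR3 by 1.97 ± 0.14. Most JAZ repressors of the pathway, such as JAZ10 (1.05 and 1.45 against 2.76 and 1.67 FPKM) and JAZ12 (72.4 and 71.0 against 75.9 and 72.1 FPKM), did not pass, but JAZ9 rose by 2.27 ± 0.20. JAZ1 also passed as higher (0.66), a call lost without the filter, without the intensity trend or on the 4 libraries alone. MYC2 was listed at 0 in all 4 libraries.

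Salicylic acid and immunity genes were higher in none of 24 and lower in 13 (median -0.77). WRKY70, a factor downstream of the hormone, fell from 165.6 and 127.1 to 46.6 and 61.2 FPKM (-1.42 ± 0.16), and PAD4 by 1.297 ± 0.15. PR1, the classical marker of the pathway, was uneven at 8 h (215 and 211 against 86.0 and 182.6 FPKM) and did not pass.

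Cold, drought and abscisic acid genes parted in direction, 10 of 32 higher and 18 lower (median -0.59). COR15A and COR15B, chloroplast proteins of cold acclimation, rose from 226.2 and 203.6 to 2030 and 1594 FPKM (3.06 ± 0.17) and from 42.2 and 42.3 to 654.7 and 521.2 FPKM (3.76 ± 0.17). KIN2 rose by 1.71 ± 0.11 and the cold regulator CBF3 by 2.21 ± 0.14. Not all cold genes rose: COR47 (-0.85) and CBF2 (-0.80) passed as lower, though not in every alternative. On the side of drought and abscisic acid HB12 fell from 59.3 and 52.6 to 4.87 and 4.58 FPKM (-3.31 ± 0.17) and GOLS2, a galactinol synthase, by 3.32 ± 0.28 on the log2 scale.

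Heat shock genes were lower in 10 of 26 and higher in 4 (median -0.28): MBF1C fell by 1.43 ± 0.13, while HSFA3 rose by 1.07 ± 0.19. Chaperones of the endoplasmic reticulum were higher in 10 of 12 (median 1.17), with CRT1A, a calreticulin, from 71.4 and 68.6 to 181.6 and 192.6 FPKM (1.41 ± 0.06) and BIP2 and CNX1 by 1.496 ± 0.08 and 1.49 ± 0.10. BIP3 (-0.86 ± 0.29) and BZIP60 (-1.04 ± 0.09), markers of the unfolded protein response, were the 2 that fell. BIP3 did not pass without 0 h replicate 1 or without either 8 h library, which left 1 lower member.

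Ribosome biogenesis genes were higher in 11 of 13 and lower in none (median 0.92). NUC-L1, a nucleolin, went from 103.8 and 110.8 to 307.9 and 293.0 FPKM (1.48 ± 0.06), and FIB2, a fibrillarin, from 40.9 and 41.8 to 149.8 and 140.8 FPKM (1.79 ± 0.10). Of 168 snoRNA genes, which guide modification of ribosomal RNA, 42 were higher and 8 lower with a median of 0.41. The count higher is near the 24.9% share of all genes, and only the count lower is far from its share, 25.1%. Poly-A selection captures such transcripts poorly. Cell cycle genes were higher in 5 of 9 (median 0.38), led by CDKB2-1 (1.099 ± 0.19), but in 1 to 3 when any 1 of the 4 libraries was left out.

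Nitrogen genes were lower in 16 of 27 and higher in 5 (median -0.52). The nitrate reductases NIA2 and NIA1 fell from 286.6 and 292.9 to 76.0 and 72.4 FPKM (-1.95 ± 0.09) and from 22.1 and 23.8 to 5.66 and 4.07 FPKM (-2.04 ± 0.13). NPF2.13, a nitrate transporter, rose by 2.03 ± 0.11. Phosphate starvation genes were higher in 7 of 12 and lower in none (median 0.74), among them PAP17 at 1.59 ± 0.14, SPX1 at 1.48 ± 0.15 and SQD1 of sulfolipid synthesis at 1.17 ± 0.09. Glucosinolate genes were divided, 9 of 21 higher and 7 lower (median 0.11), with MAM1 (0.92 ± 0.09) and CYP79F1 (1.01 ± 0.10) of synthesis higher, and CYP83B1 of synthesis (-0.59 ± 0.08) and the regulators MYB29 (-0.74 ± 0.10) and MYB34 (-0.90 ± 0.13) lower.

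**Figure D5:**
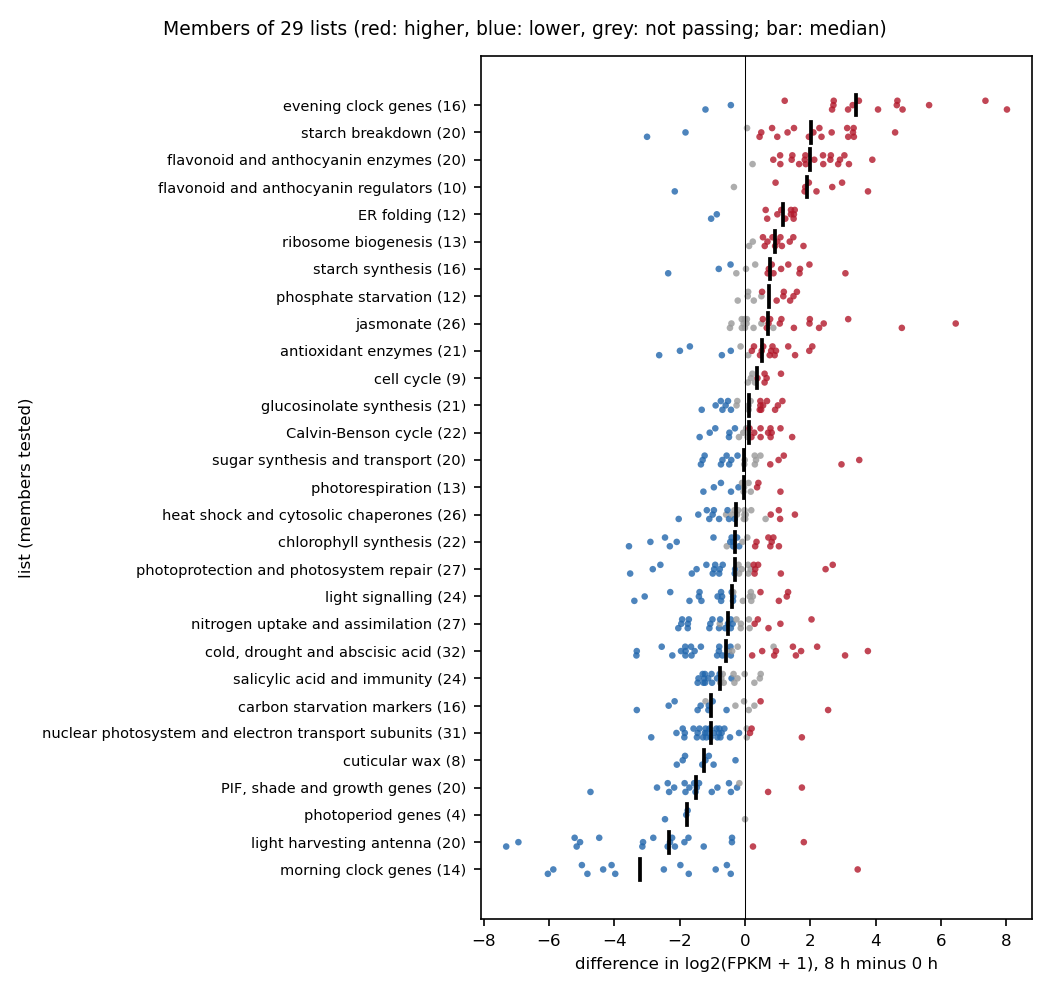
Difference in log2(FPKM + 1) between 8 h and 0 h for each tested member of 29 gene lists, sorted by the list's median (black bar), red for members that passed as higher, blue for lower and grey for those that did not pass. Evening clock genes stood highest at a median of 3.39 and morning clock genes lowest at -3.23.

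Outside the lists, OEP161, a pore of the outer chloroplast envelope, rose from 53.5 and 49.2 to 1752 and 1641 FPKM (5.02 ± 0.09, adjusted p = 4.29e-15) and from the 2041st to the 31st rank. DJC76, a DnaJ-type chaperone of the chloroplast, rose from 0.590 and 1.60 to 255.9 and 254.4 FPKM (6.98 ± 0.16). AT1G07050, which carries the CCT motif also found in PRR and CONSTANS proteins, rose from 0.149 and 0.419 to 88.1 and 85.7 FPKM (6.10 ± 0.16). The other leading genes that rose were AT2G23910 (6.28 ± 0.25), the Kunitz-type protease inhibitor AT1G73325 (5.43 ± 0.25), the cellulose synthase-like ATCSLA01 (5.26 ± 0.24) and the cyclophilin CYP19-2 (5.07 ± 0.16). A transcript model with no gene name on chromosome 1 (25990205 to 25992306) rose from 0.434 and 0.366 to 77.2 and 62.4 FPKM (5.65 ± 0.21).

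At the other end AT5G48490 fell from 206.5 and 172.6 to 0.850 and 1.102 FPKM (-6.59 ± 0.31), CCD4, a carotenoid cleavage enzyme, from 114.0 and 113.6 to 2.11 and 2.26 FPKM (-5.17 ± 0.20) and the hydrolase-like AT2G41250 from 63.9 and 60.2 to 0.664 and 0.722 FPKM (-5.22 ± 0.28). NAC029, also named NAP and known as a driver of leaf senescence, had 1454 reads over the 0 h libraries and 3 over the 8 h libraries, a ratio of 432 (95% counting interval 148 to 2097). COL7, a CONSTANS-like factor, fell from 75.9 and 82.7 to 1.37 and 1.38 FPKM (-5.08 ± 0.20).

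The step from 4 to 8 h asks where the leaves of 8 h differed from those taken midway. It called 1218 genes higher (6.31% of those tested) and 1363 lower (7.06%), and the split rests on the scaling: with libraries scaled to their total reads 69.9% of 3295 calls were higher, against 47.2%. On the 4 libraries of the 2 hours alone the count fell to 1151, and without 8 h replicate 1, 8 h replicate 2 or 4 h replicate 1 it was 1608, 1585 and 1692. This comparison shares its 8 h libraries with the main one. The leading genes higher at 8 h were COR27 (1.22 and 1.31 FPKM at 4 h, 4.77 ± 0.25), JMJD5 (2.27 and 2.40 FPKM at 4 h, 4.42 ± 0.14), RVE2 (1.52 and 1.03 FPKM at 4 h, 4.19 ± 0.22), AT2G23910 (4.13 ± 0.25), the CONSTANS-like COL9 (3.38 ± 0.16) and COR28 (3.27 ± 0.18).

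By this step the antenna was lower in 17 of 20 genes and higher in 1, and photosystem genes were lower in 27 of 31 and higher in 2. LHCB1.1 had still been at 3894 and 3938 FPKM at 4 h (-4.05 ± 0.06 from there to 8 h), LHCB1.4 at 758.8 and 666.1 FPKM (-5.21 ± 0.21), LHCB2.3 at 288.7 and 286.6 FPKM (-4.70 ± 0.12) and LHCB2.1 at 1691 and 1595 FPKM (-3.88 ± 0.10). LEA2, a late embryogenesis abundant protein, was high at 4 h and low at 8 h (245.5 and 225.4 against 6.98 and 3.22 FPKM, -5.35 ± 0.23), and the kinase CIPK20 likewise (44.5 and 39.7 against 1.32 and 1.22 FPKM, -4.25 ± 0.13). Flavonoid enzymes were higher in 19 of 20, and the evening clock list in 11 of 16 with 2 lower. Starch breakdown was higher in 3 of 20 and lower in none, with ISA3 at 92.3 and 93.6 FPKM and SEX4 at 193 and 173 FPKM already at 4 h. Ribosome biogenesis was higher in none of 13 and lower in 2, and wax genes in none either way.

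From 8 to 16 h, a step that shares the same 8 h libraries, 1940 genes were higher (10.0%) and 1859 lower (9.63%), or 2284 in all on the 4 libraries of the 2 hours alone and 2368 without 8 h replicate 1. The evening clock list was lower in 13 of 16 and higher in 1: GI fell by 3.54 ± 0.17 to 1.24 FPKM in both libraries, GRP7 by 3.45 ± 0.09 to 336.4 and 356.7 FPKM and ELF4 by 2.28 ± 0.17 to 51.7 and 62.1 FPKM. LHY rose by 3.38 ± 0.14 to 9.25 and 9.96 FPKM and RVE8 by 3.08 ± 0.12 to 14.6 and 13.6 FPKM, and PRR7 fell by 3.19 ± 0.13. Starch breakdown was lower in 10 of 20 and higher in 5. COR15B and COR15A fell by 3.83 ± 0.17 and 3.30 ± 0.17 to 44.7 and 35.9 FPKM and to 194.9 and 169.1 FPKM. The 16 h leaves were in high light at an hour when the short day would have been dark.

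Flavonoid enzymes were higher at 16 h than at 8 h in 17 of 20 and lower in none, with TT7 at 377 and 372 FPKM at 16 h. The antenna was lower in 12 of 20 and higher in 2, LHCB1.1 reaching 38.4 and 44.4 FPKM, and LHCB4.3 rose to 846 and 806 FPKM. Photoprotection was higher in 18 of 27 and lower in 1 over this step, nitrogen in 12 and 1 of 27 and the Calvin-Benson cycle in 17 and 1 of 22, with NIA2 back at 237 and 227 FPKM and CAT2 at 489 and 474 FPKM. The other leading genes of this step were CRRSP38 (3.08 ± 0.24), the iron-deficiency factor BHLH100 (3.08 ± 0.41), AT1G07367 (3.08 ± 0.39) and AT5G07475 (3.05 ± 0.33) higher, and the DnaJ-like AT1G71000 (-3.29 ± 0.34) lower. At 30 h, after 6 h back in normal light and 8 h into what would be the next short day, CCA1 stood at 30.1 and 25.8 FPKM, LHCB1.1 at 4131 and 4225 FPKM and ELF4 at 9.07 and 8.37 FPKM.

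The change to 8 h was also set against that of ilp1-1, a line mutated in ILP1, a gene whose protein is known from splicing. It differed between the genotypes for 2563 genes (13.3%), 1310 with a higher value in Col-0 (6.78%) and 1253 with a lower one (6.49%). Of the antenna list 15 of 20 members had a lower change in Col-0 than in ilp1-1 and 1 a higher one, and of the evening clock list 6 had a higher and 2 a lower one. The genotypes also differed at 0 h: LHCB1.1 stood at 4770 and 4844 FPKM in ilp1-1 against 7703 and 7940 FPKM in Col-0. At 8 h it stood at 587.2 and 586.8 FPKM in ilp1-1 against 236.3 and 234.2 FPKM in Col-0. HY5, RVE2 and BT2 are examples picked by no rule, outside the leading genes of the main comparison. The change in Col-0 lay above that in ilp1-1 by 1.24 ± 0.16 for HY5 (adjusted p = 8.3e-05 in limma), 3.69 ± 0.31 for RVE2 and 2.69 ± 0.26 for BT2. RVE2 did not rise in ilp1-1, with 7.24 and 6.87 FPKM at 0 h and 6.79 and 4.96 FPKM at 8 h (-0.24 ± 0.22). The ilp1-1 libraries of 8 h had plastid transcripts at 0.0995 and 0.129% of reads, against 0.0206 to 0.0316% in the 4 Col-0 libraries, and the part of this in the difference was not tested.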

How the data were processed

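Per the labels, total leaf RNA was poly-A selected and made into strand-marked (dUTP) libraries. Per the submitters' processing notes, alignment tools and build include HISAT2 2.0.5, TAIR10 and featureCounts 1.5.0-p3. Not given in the sources used here: strand setting, other options and the program behind the FPKM scale. The authors deposited 10 tables of FPKM for 33104 genes, 1 for each genotype and hour, with 2 libraries each. FPKM times gene length fell on whole multiples of 1 step (within a tolerance of 0.001 reads), which gave back reads per gene. Each library was scaled in proportion to a median-of-ratios size factor taken over all 20, which puts the 10 tables on 1 scale.

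From these values log2(FPKM + 1) of the 19311 genes with at least 1 FPKM in at least 2 libraries was fitted with limma 3.58.1 in R 4.3.3 (10 group means, empirical Bayes with an intensity trend, residual degrees of freedom 10, median prior degrees of freedom 5.12). Passing means a p under 0.05 after Benjamini-Hochberg adjustment over all genes of 1 comparison. All 20 libraries share 1 estimate of the spread. The fit was also run on simulated data in which few genes changed, unlike here, and no count above rests on that run. Named are the 12 highest and 12 lowest passing genes whose higher group averages 5 FPKM or more and whose libraries do not overlap. For the steps from 4 and to 16 h they are the 6 highest and 6 lowest. Members of the 36 lists are examples and follow no single rule. Some of the 4 members with the smallest adjusted p in a list are left out, and other members are given, some with larger changes. The comparison, its members and the lists were chosen with earlier results of these data known. Of the gene identifiers, 32548 matched RefSeq's annotation, 99.95% of them at identical coordinates, and promoters were read from its genome. Of 603 list genes 568 were tested (206 higher, 239 lower), and 16 were listed at 0 in all 4 libraries. Some genes listed at 0 can be failed estimates of the counting. Alternatives were a pseudocount of 0.1, no filter, 2 other scalings, no trend, limma-voom on the recovered reads, a replicate block, fewer libraries in the fit and each library left out. Tables were made in Python 3.11.15 with pandas 2.3.3 and numpy 2.4.6, and figures with matplotlib 3.10.9.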

Additional observations from a re-analysis of the deposited data

Results flagged for a closer look

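For 15 of the 24 leading genes the change from 0 h to 8 h differed between Col-0 and ilp1-1, tested as the difference of the changes (limma, Benjamini-Hochberg adjusted p under 0.05 over all genes). Values are Col-0 minus ilp1-1 in log2(FPKM + 1). Among genes that rose, the rise was larger in Col-0 by 1.47 for ELF4 (0.646 and 0.537 to 159 and 136.5 FPKM in ilp1-1), 0.71 for GRP7, 1.205 for DJC76, 1.82 for the unnamed transcript model on chromosome 1, 2.19 for AT1G73325, 1.58 for ATCSLA01, 1.38 for CYP19-2 and 0.51 for OEP161. AT1G73325 and ATCSLA01 started higher in ilp1-1, at 7.29 and 4.62 FPKM and at 7.23 and 3.27 FPKM.

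Among genes that fell, the difference was -2.79 for LHCB2.3 (435.5 and 484 to 17.1 and 21.1 FPKM in ilp1-1), -3.14 for LHCB1.4, -1.65 for LHCB2.1, -1.80 for LHCB2.2, -2.02 for LHCB1.1, -1.80 for COL7 and -0.86 for CCA1. The LHCB genes named here stood lower in ilp1-1 than in Col-0 at 0 h and higher at 8 h. CCA1 stood higher in ilp1-1 at both hours, at 173 and 160 FPKM and at 3.64 and 3.63 FPKM. The plastid share of reads was 0.0995 and 0.129% in the ilp1-1 libraries of 8 h, and its part in these differences was not tested.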

How the results depend on the processing

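The count of genes that passed between 8 h and 0 h lay between 7991 and 10041 over all alternatives (9666 as reported): 10041 with limma-voom, 9518 scaled to total reads (5346 higher, 4172 lower, median of all genes 0.03) and 7991 to 8223 without 1 library. Deviations of the replicates at 0 h and 8 h correlated at -0.0007, so no replicate effect shared by these 2 groups was seen. Over all pairs of groups the correlation lay between -0.148 and 0.126, which does not tell how the replicates were taken. With the replicate block 9608 genes passed, 2561 between 8 and 4 h, 3749 between 16 and 8 h and 2523 for the genotype difference. On their own libraries alone the steps from 4 h and to 16 h passed 1151 and 2284 genes, and without 1 library 1585 to 1933 and 2368 to 2809. The genotype difference passed 1792 to 2213 genes without 1 library. The cause of these losses was not tested beyond the fewer libraries in each fit. Of the 581 tested list and leading genes (580 scaled to total reads) 554 to 579 kept their call under each setting with all 4 libraries. Fewer kept it when 1 library was left out. None that passed changed sign under any setting, while direction was not counted for genes that passed in neither fit. The 24 leading genes kept direction and call under all 13. KAT2, which did not pass, had 0.15 as reported, 0.55 without 8 h replicate 1 and -0.25 without 8 h replicate 2, passing in none. Depth limits the genes near 0, such as ELF4 and LHY, whose folds carry wide counting intervals.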

Other observations

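By kind of gene, 4675 of 18238 protein-coding genes were higher at 8 h and 4728 lower, shares close to those of all genes. Of 87 microRNA genes 6 were higher and 17 lower (median -0.35), of 371 long non-coding RNA genes 35 and 28, and of 88 tRNA genes 4 and 2. Of 31 mitochondrial genes tested 11 were higher and 0 lower (median 0.73), and of 108 plastid genes 2 were higher and 10 lower (median -0.08). Poly-A selection captures organelle and small RNAs poorly, so these counts describe what remained in the libraries.

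Guard cell markers were higher in 1 of 6 (KAT1) and lower in 1 (MYB60). KAT1 did not pass without 0 h replicate 1 (0.44) or 8 h replicate 1 (0.44), nor MYB60 without 0 h replicate 2 (-0.73) or 8 h replicate 1 (-0.65). Vascular markers were lower in 2 of 9 and higher in none, but lower in 1 without any 1 of the 4 libraries and higher in 1 scaled to total reads, without the intensity trend or with limma-voom. Mesophyll markers were higher in 1 of 4 and lower in 2, of which LHCB1.1 is also an antenna gene. The 1 root marker and the 2 meristem markers with enough signal to be tested, PYK10, STM and AG, did not pass, except PYK10 as lower when the 4 libraries were fitted alone (adjusted p = 0.0219 in limma, -0.35).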
